A study of Homo sapiens with 12 samples.

Results

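The mevalonate pathway builds isoprenoids from acetyl-CoA, and 8 of its enzymes up to farnesyl diphosphate were followed here among the 58735 genes of the count table: ACAT2, AACS, HMGCS1, MVK, PMVK, MVD, IDI1 and FDPS. They were taken by symbol, each symbol matched 1 gene identifier, and all 8 passed the filter on low counts in every comparison. The RNA came from HEC-1A, an epithelial line derived from an endometrial adenocarcinoma, and from T-HESC, a line of endometrial stromal cells immortalised with telomerase. Cultures of each line received AG-205 (15 µM), a small molecule sold as a ligand and inhibitor of the membrane protein PGRMC1 whose specificity for it has been disputed, or its vehicle DMSO, and RNA was taken after 32 h. There were 3 libraries in each of the 4 groups, and no group carried a deletion or any other agent. Each line is a single cell line, so replicates measure the spread between cultures of that line and not between donors.

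In this pathway the cytosolic thiolase ACAT2 joins acetyl-CoA units into acetoacetyl-CoA, and AACS makes the same product from the ketone body acetoacetate. HMGCS1 adds a further acetyl-CoA to give HMG-CoA, which is then reduced to mevalonate. MVK and PMVK phosphorylate mevalonate in turn, MVD decarboxylates the product to isopentenyl diphosphate, IDI1 isomerises it, and FDPS condenses these units to farnesyl diphosphate. Farnesyl diphosphate is the last intermediate shared by sterols, ubiquinone, dolichol and protein prenylation, and transcription of the pathway is known to rise when cells sense low sterol through the SREBP2 transcription factor.

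Total counts per library ranged from 7168542 to 15178276, and the 8 enzymes had between 172 and 8802 counts per library. Levels are given as CPM, the count of a gene relative to the total of its library, with the totals scaled by edgeR's TMM method over all 12 libraries. The lines matched their labels, since the summed level of 8 stromal markers was 12825 to 27066 CPM in T-HESC and 8.43 to 14.6 CPM in HEC-1A. The epithelial marker CDH1 had at most 3 counts in T-HESC libraries, while the summed level of 5 epithelial markers, among them keratins, was 1007 to 1136 CPM in HEC-1A with DMSO, 1263 to 1380 CPM in HEC-1A with AG-205 and 218 to 383 CPM in T-HESC. The part of these shifts in the results was not tested, and CPM are shares of a library, so RNA per cell was not measured. Libraries of a group spread more in T-HESC (biological coefficient of variation 33.6%) than in HEC-1A (10.1%). AG-205 replicate 1 of T-HESC stood apart, with a chi-square per degree of freedom over genes of 160 and 207 against the other AG-205 libraries, which differed from each other by 64.5. DMSO replicate 3 of T-HESC also stood apart in its group, at 47.3 and 40.8 where the others differed by 11.2. So did AG-205 replicate 3 of HEC-1A, at 15.4 and 14.2 where the others differed by 4.19. Results that rest on AG-205 replicate 1 of T-HESC are also given without it, and counts of calls without each library.

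The promoters of 5 enzymes are shown so that the letters before HMGCS1, MVD and MVK, whose levels rose in HEC-1A, can be set beside those before AACS and PMVK, whose levels did not pass the test. RefSeq sequences of 250 bases before the annotated transcription start (GRCh38.p14) were held for 7 of the 8 enzymes. Each line gives the strand of the gene from 5′ to 3′, and capitals mark CCAAT or its reverse complement ATTGG.
HMGCS1 (upstream start, chr5:43313413-43313662, minus strand): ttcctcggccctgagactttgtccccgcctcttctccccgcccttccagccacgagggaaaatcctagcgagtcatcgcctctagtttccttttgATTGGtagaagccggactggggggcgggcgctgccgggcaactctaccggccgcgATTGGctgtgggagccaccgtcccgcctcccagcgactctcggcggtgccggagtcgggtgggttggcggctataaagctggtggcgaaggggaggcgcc
MVD (chr16:88663092-88663341, minus strand): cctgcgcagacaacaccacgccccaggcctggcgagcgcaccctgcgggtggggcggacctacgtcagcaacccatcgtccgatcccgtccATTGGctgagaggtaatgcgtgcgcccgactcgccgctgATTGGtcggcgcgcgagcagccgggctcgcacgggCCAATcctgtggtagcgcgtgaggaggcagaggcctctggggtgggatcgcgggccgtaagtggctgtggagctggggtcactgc
MVK (chr12:109573544-109573793, plus strand): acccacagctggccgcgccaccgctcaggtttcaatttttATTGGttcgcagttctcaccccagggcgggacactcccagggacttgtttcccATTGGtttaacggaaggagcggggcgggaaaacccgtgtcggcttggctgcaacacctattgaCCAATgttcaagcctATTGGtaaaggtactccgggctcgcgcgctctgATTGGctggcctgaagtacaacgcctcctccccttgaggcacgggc
AACS (chr12:125065185-125065434, plus strand): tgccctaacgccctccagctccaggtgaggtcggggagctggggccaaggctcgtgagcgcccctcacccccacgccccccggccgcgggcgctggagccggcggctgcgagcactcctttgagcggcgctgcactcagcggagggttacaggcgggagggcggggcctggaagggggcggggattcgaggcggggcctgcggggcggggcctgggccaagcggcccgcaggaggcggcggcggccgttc
PMVK (chr1:154936720-154936969, minus strand): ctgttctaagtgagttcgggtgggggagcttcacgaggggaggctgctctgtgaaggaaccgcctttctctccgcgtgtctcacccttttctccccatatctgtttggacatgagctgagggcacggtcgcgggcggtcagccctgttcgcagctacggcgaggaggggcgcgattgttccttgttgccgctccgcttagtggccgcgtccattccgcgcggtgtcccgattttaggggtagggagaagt

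Counted on both strands, CCAAT occurred 5 times before MVK, 3 times before MVD, 3 times before FDPS and 2 times before the upstream start of HMGCS1. The 3 annotated starts of IDI1 had 3, 2 and 0 matches, of which 2 at the first start overlap each other. AACS and PMVK had 0 matches, as did the downstream start of HMGCS1. Of 35097 promoter windows of the same length, 32.0% held at least 1 match and 2.92% held 3 or more. Of the other motifs searched on both strands, CACNCCAC was found only before the first start of IDI1 (4.87% of all windows) and CACGTG before none of the 7 enzymes (6.34% of all windows), while GGGCGG occurred 1 to 3 times before every start (42.6% of all windows). A match in these windows is a description of letters, and no binding was measured.

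**Figure D1:**
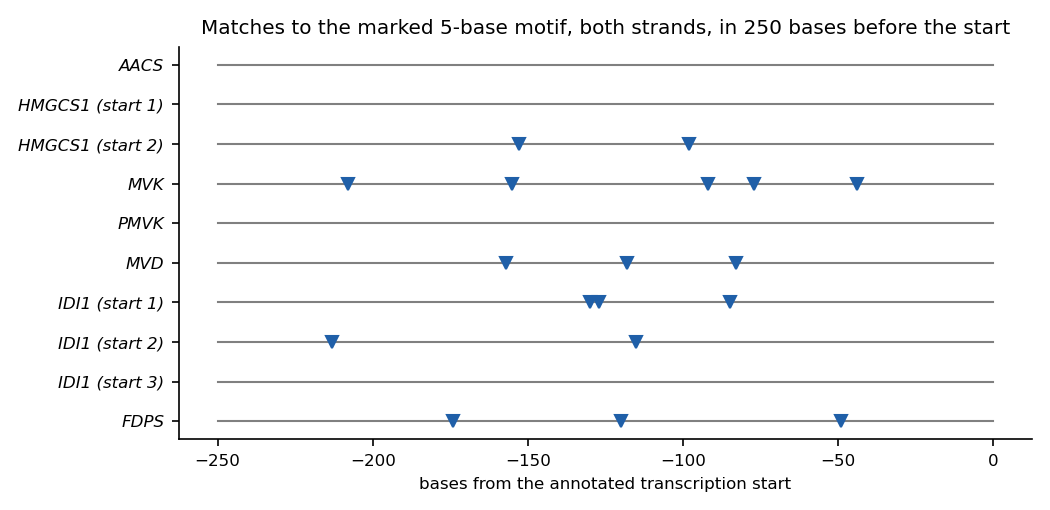
Positions of the marked 5-base motif (triangles) in the 250 bases before each annotated start of the 7 enzymes with a promoter sequence, one line per start, with distance from the start in bases on the x axis. AACS and PMVK carry 0 triangles, as do start 1 of HMGCS1 and start 3 of IDI1, whereas MVK carries 5 and MVD and FDPS carry 3 each.

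In HEC-1A, 6 of the 8 enzymes rose with AG-205, between 3.53-fold (MVK) and 7.66-fold (MVD), and AACS and PMVK were not called. The call needed a log2 fold change beyond 1 together with a p below 0.05 from the quasi-likelihood test of edgeR, adjusted after Benjamini and Hochberg across the 14122 genes of that fit. Of those genes, 2.58% were called higher. In T-HESC, 4 of the 8 were called higher (HMGCS1, MVD, IDI1 and FDPS), where 0.08% of 13753 genes were. All 3 AG-205 libraries lay above all 3 DMSO libraries for 6 enzymes in each line, where 16.4% (HEC-1A) and 6.23% (T-HESC) of all tested genes did so. Over the 8 enzymes the median log2 fold change came to 2.33 (HEC-1A) and 2.31 (T-HESC), beside 0.01 and 0.02 over all genes tested.

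**Figure D2:**
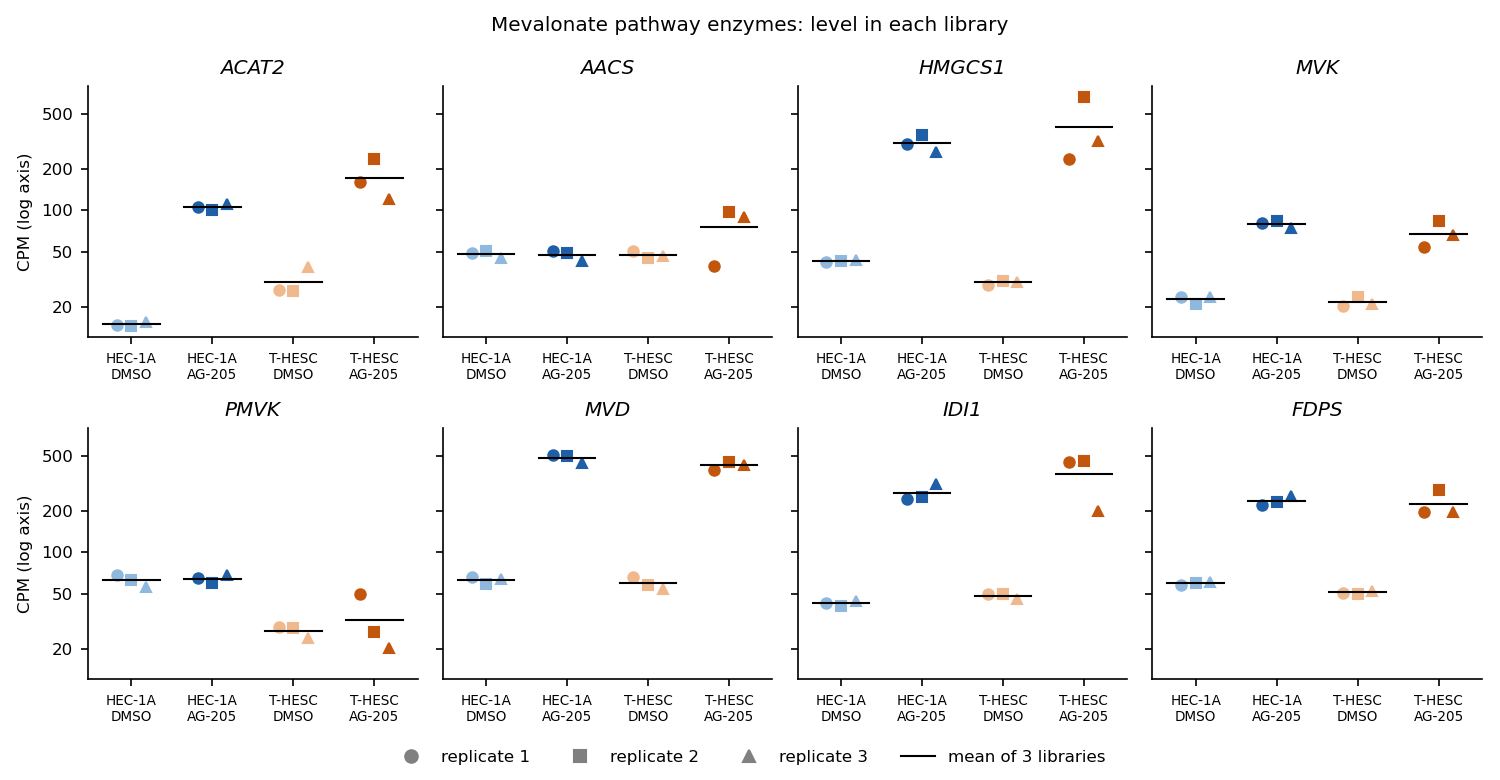
Level of each enzyme in each of the 12 libraries in CPM on a log axis, with 1 symbol per replicate and a bar at the mean of the 3 libraries of a group. The AG-205 and DMSO libraries do not overlap in either line for ACAT2, HMGCS1, MVK, MVD, IDI1 and FDPS, whereas AACS (42.7 to 50.4 CPM in HEC-1A with AG-205) and PMVK overlap.

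At the entry of the pathway, ACAT2 (ENSG00000120437, chromosome 6 from 159762045 to 159779112 in GENCODE 44 on GRCh38) had 14.8, 14.5 and 15.4 CPM in the DMSO libraries of HEC-1A and 106, 101 and 112 CPM with AG-205. In T-HESC it had 26.5, 26.0 and 38.6 CPM with DMSO and 160, 236 and 122 CPM with AG-205. The groups were apart in both lines, and DMSO replicate 3 of T-HESC was above the other DMSO libraries. The log2 fold change was 2.84 (SE 0.0997, adjusted p = 3.59e-09 by edgeR) in HEC-1A and 2.49 (SE 0.316) in T-HESC, where the edgeR adjusted p of 0.0565 missed the threshold. It passed without AG-205 replicate 1 (adjusted p = 0.0166 by edgeR) and with DESeq2 (6.84e-10). With any other single library left out it did not pass, with an edgeR adjusted p of up to 0.576.

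AACS (ENSG00000081760, chromosome 12 from 125065434 to 125143333), which feeds the pathway from acetoacetate, had 48.6, 50.4 and 45.5 CPM with DMSO and 50.4, 49.3 and 42.7 CPM with AG-205 in HEC-1A. These libraries overlapped, and the log2 fold change was -0.02 with a 95% interval from -0.23 to 0.20 (adjusted p = 0.94 by edgeR). In T-HESC it had 50.4, 44.9 and 46.5 CPM with DMSO and 39.2, 97.8 and 90.2 CPM with AG-205. AG-205 replicate 1 was thus below all DMSO libraries and the other AG-205 libraries were far above them, with log2 differences from the DMSO mean of -0.27, 1.05 and 0.93. The log2 fold change over all libraries was 0.66 with a 95% interval from -0.11 to 1.43 (adjusted p = 0.993 by edgeR). Leaving out AG-205 replicate 1 gave 0.96 (adjusted p = 0.0571 by edgeR), and 0.93 was obtained with library quality weights in limma (adjusted p = 0.0258), which is under the fold limit.

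HMGCS1 (ENSG00000112972, chromosome 5 from 43287470 to 43313512), the cytosolic HMG-CoA synthase, had 42.0, 42.6 and 43.7 CPM with DMSO and 303, 355 and 266 CPM with AG-205 in HEC-1A. In T-HESC the values were 28.7, 30.9 and 30.2 CPM with DMSO and 235, 661 and 318 CPM with AG-205. AG-205 replicate 2 of T-HESC was far above the other AG-205 libraries, and even the lowest of them was far above every DMSO library. The log2 fold changes were 2.85 (SE 0.115, adjusted p = 1.42e-08 by edgeR) in HEC-1A and 3.74 (SE 0.414, adjusted p = 0.0336 by edgeR) in T-HESC, the largest of the 8 enzymes in T-HESC. The latter was 3.17 without AG-205 replicate 2 (adjusted p = 0.101 by edgeR).

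MVK (ENSG00000110921, chromosome 12 from 109573255 to 109598125), the first of the kinases, had 23.4, 21.0 and 23.3 CPM with DMSO and 80.8, 83.3 and 74.6 CPM with AG-205 in HEC-1A. In T-HESC it had 20.2, 23.6 and 20.9 CPM with DMSO and 53.9, 83.9 and 65.8 CPM with AG-205. The groups were apart in both lines, with AG-205 replicate 1 the lowest of the treated T-HESC libraries. The log2 fold change was 1.82 (SE 0.0983, adjusted p = 1.39e-07 by edgeR) in HEC-1A and 1.64 (SE 0.237) in T-HESC. There the edgeR adjusted p was 0.0856, and 0.0114 without AG-205 replicate 1. With any other single T-HESC library left out MVK did not pass, with an edgeR adjusted p of up to 0.727.

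PMVK (ENSG00000163344, chromosome 1 from 154924740 to 154936719), the kinase of the next step, had 68.7, 62.6 and 56.3 CPM with DMSO and 64.7, 59.9 and 68.9 CPM with AG-205 in HEC-1A. The groups overlapped, at 0.04 on the log2 scale with a 95% interval from -0.18 to 0.27 (adjusted p = 0.833 by edgeR). In T-HESC it had 28.6, 28.3 and 24.0 CPM with DMSO and 49.9, 26.4 and 20.2 CPM with AG-205. AG-205 replicate 1 was the highest library of the line and AG-205 replicate 3 the lowest. The log2 fold change there was 0.24 with a 95% interval from -0.57 to 1.06 (adjusted p = 0.993 by edgeR), and -0.24 without AG-205 replicate 1.

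MVD (ENSG00000167508, chromosome 16 from 88651935 to 88663161), the decarboxylase, had 66.5, 59.3 and 63.6 CPM with DMSO and 506, 500.3 and 442 CPM with AG-205 in HEC-1A. In T-HESC the values were 66.7, 57.5 and 54.6 CPM with DMSO and 396, 454 and 433 CPM with AG-205. In both lines the groups were far apart, and with AG-205 the T-HESC libraries of MVD spread least of the 8 enzymes (coefficient of variation 6.80%). The log2 fold changes were 2.94 (SE 0.101, adjusted p = 3.54e-09 by edgeR) in HEC-1A, the largest of the 8 there, and 2.83 (SE 0.224, adjusted p = 0.0204 by edgeR) in T-HESC.

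IDI1 (ENSG00000067064, chromosome 10 from 1039152 to 1049119), the isomerase, had 42.7, 41.1 and 44.1 CPM with DMSO and 243, 252 and 315 CPM with AG-205 in HEC-1A. In T-HESC it had 49.5, 50.1 and 45.5 CPM with DMSO and 450, 463 and 201 CPM with AG-205. AG-205 replicate 3 of T-HESC was well below the other AG-205 libraries and still far above DMSO. The log2 fold change was 2.67 (SE 0.119, adjusted p = 3.21e-08 by edgeR) in HEC-1A and 2.93 (SE 0.361) in T-HESC, where the edgeR adjusted p of 0.0498 passed the threshold narrowly.

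FDPS (ENSG00000160752, chromosome 1 from 155308748 to 155320666), the farnesyl diphosphate synthase, had 58.4, 59.7 and 61.1 CPM with DMSO and 222, 231 and 256 CPM with AG-205 in HEC-1A. In T-HESC the values were 51.0, 50.1 and 52.8 CPM with DMSO and 197, 284 and 195 CPM with AG-205. The groups did not overlap in either line, and the DMSO libraries were within a narrow range in both. The log2 fold changes were 1.98 (SE 0.0954, adjusted p = 5.03e-08 by edgeR) in HEC-1A and 2.12 (SE 0.237, adjusted p = 0.0336 by edgeR) in T-HESC.

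**Figure D3:**
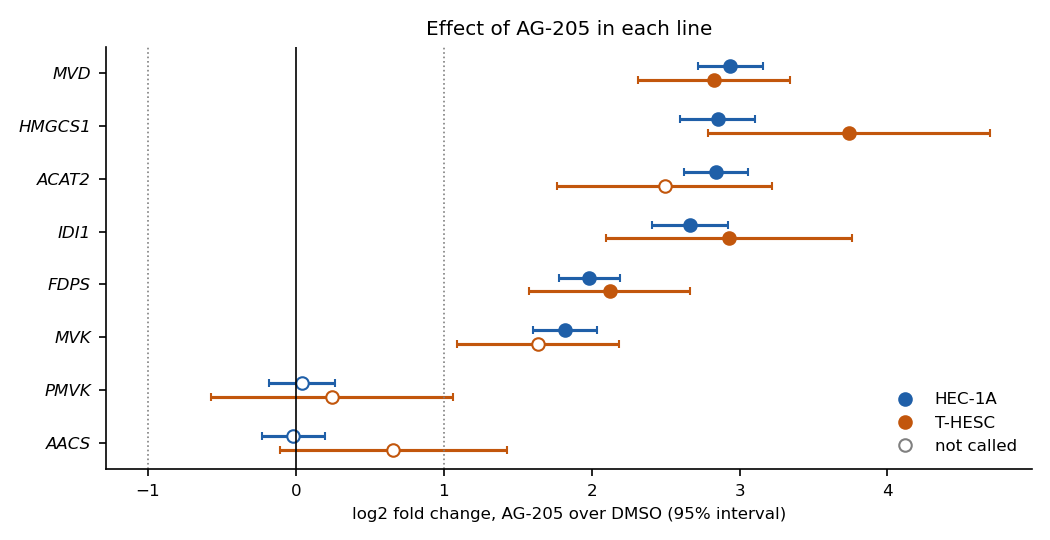
Log2 fold change of AG-205 over DMSO for each enzyme in HEC-1A (blue) and T-HESC (orange), with 95% intervals from edgeR, filled where called and open where not, and dotted lines at the fold limit. The intervals of 6 enzymes lie above 1 in both lines, and those of PMVK and AACS include 0 in both lines.

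In HEC-1A the 6 calls were made under each of the 12 alternative settings, among them DESeq2 and leaving out each library. The T-HESC count depended on single libraries. It was 6 when AG-205 replicate 1 was left out, where 69 genes of the whole table (0.49%) were called higher, and 2 when AG-205 replicate 3 was, where 5 genes (0.0354%) were. With AG-205 replicate 2 or any single DMSO library left out, edgeR called 0 genes of the whole table higher and so 0 of the 8. In each of these omissions 6 of the 8 had an unadjusted p under 0.05, which 2.88% to 4.85% of all tested genes had. The log2 fold changes of these 6 enzymes in T-HESC were between 1.44 (MVK) and 4.01 (HMGCS1) over the 6 omissions. DESeq2 on all 6 T-HESC libraries called 6 of the 8 and 0.778% of all tested genes higher.

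The difference between the lines was tested as the T-HESC effect minus the HEC-1A effect in a fit of all 12 libraries. edgeR called 0 of the 8 enzymes (0.174% of 16132 genes were called in either direction), with 0 at an unadjusted p under 0.05. DESeq2 also called 0, with 1 at an unadjusted p under 0.05. The largest differences were 0.91 for HMGCS1 (SE 0.418, adjusted p = 0.787 by edgeR) and 0.70 for AACS (SE 0.371, adjusted p = 0.859 by edgeR). HMGCS1 was called with library quality weights (1.25, limma adjusted p = 0.0175) and AACS without AG-205 replicate 1 of T-HESC (1.01, adjusted p = 0.0192 by edgeR). The 95% intervals of the other 6 differences were within -1.03 (ACAT2) and 1.07 (IDI1), and narrowest for MVD, from -0.53 to 0.35. This fit took 1 spread per gene for both lines, although T-HESC libraries spread more, so the intervals can be too narrow. For MVD the SE of the difference was 0.202, below the SE of 0.224 of its T-HESC effect alone.

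Between the DMSO cultures of the lines, 2 of the 8 were called and 44.3% of all 16132 genes were. PMVK was lower in T-HESC (27.0 ± 2.57 against 62.5 ± 6.21 CPM, SD, n = 3), with a log2 difference of -1.21 (SE 0.267, adjusted p = 0.00169 by edgeR). ACAT2 was higher in T-HESC (30.4 ± 7.12 against 14.9 ± 0.48 CPM, SD, n = 3), with a log2 difference of 1.03 (SE 0.234, adjusted p = 0.00218 by edgeR), which fell to 0.81, under the fold limit, without DMSO replicate 3 of T-HESC (adjusted p = 0.012 by edgeR). The other 6 had log2 differences from -0.51 (HMGCS1, adjusted p = 0.158 by edgeR) to 0.18 (IDI1, adjusted p = 0.567 by edgeR). The fit took its spread from all 12 libraries, so these p-values do not measure the spread of the DMSO cultures alone. For HMGCS1 the DMSO libraries did not overlap, at 42.0 to 43.7 CPM in HEC-1A and 28.7 to 30.9 CPM in T-HESC. With single libraries left out, its edgeR adjusted p was between 0.0164 and 0.28.

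AACS and PMVK were set apart from the other 6 enzymes on earlier results of these data, so their contrast with the others is described without a test. In HEC-1A with DMSO, AACS counts were 19.6%, 21.2% and 18.1% of the summed counts of the other 6, and with AG-205 they were 3.45%, 3.24% and 2.91%. In T-HESC the shares were 20.8%, 18.9% and 19.1% with DMSO and 2.63%, 4.48% and 6.76% with AG-205. The DMSO shares of AACS were thus alike in both lines, and with AG-205 they were lower in all libraries and spread more in T-HESC. The other 6 enzymes rose with AG-205, so a lower share of AACS or PMVK is not a lower level. AACS itself had 39.2, 97.8 and 90.2 CPM in T-HESC with AG-205, beside 50.4, 44.9 and 46.5 CPM with DMSO.

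PMVK counts were 27.7%, 26.3% and 22.4% of the other 6 with DMSO in HEC-1A and 4.43%, 3.93% and 4.70% with AG-205. In T-HESC they were 11.8%, 11.9% and 9.90% with DMSO and 3.34%, 1.21% and 1.52% with AG-205. AG-205 replicate 1 of T-HESC had the highest share of PMVK and the lowest of AACS among the AG-205 libraries of that line. The summed level of all 8 enzymes was 356 ± 7.58 CPM with DMSO and 1595 ± 31.9 CPM with AG-205 in HEC-1A, and 315 ± 5.50 and 1777 ± 463 CPM in T-HESC (SD, n = 3).

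**Figure D4:**
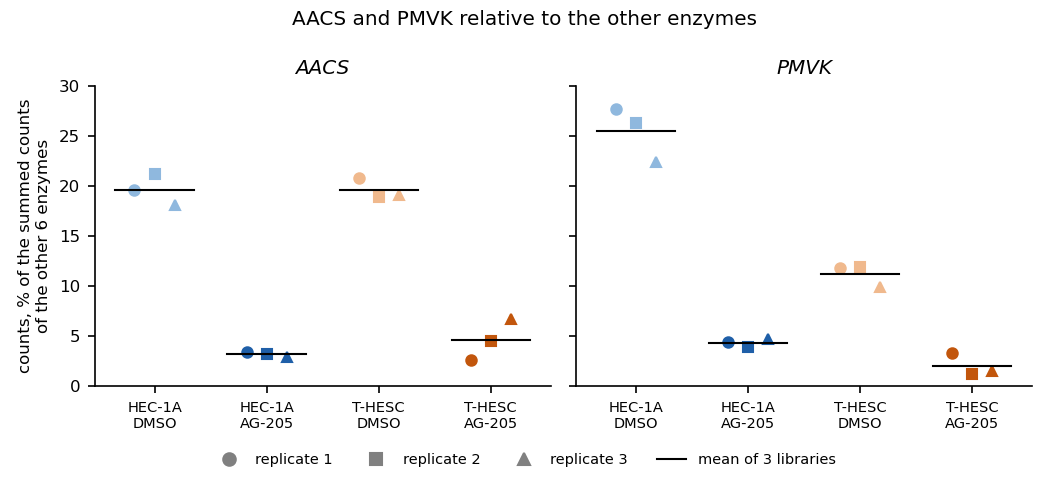
Counts of AACS (left) and PMVK (right) as a percentage of the summed counts of the other 6 enzymes in each library, with symbols for replicates and a bar at the mean of 3 libraries. With DMSO, AACS sits at 18.1% to 21.2% in both lines and PMVK at 22.4% to 27.7% (HEC-1A) or 9.90% to 11.9% (T-HESC), whereas no AG-205 library is above 6.76%.

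Lists of neighbouring genes put these enzymes in context, and they were chosen with earlier results known. Of 11 enzymes that act after squalene formation, 11 were called higher in HEC-1A (median log2 fold change 1.93) and 3 in T-HESC (median 1.91), namely SQLE (2.48), MSMO1 (3.30) and HSD17B7 (2.58), while DESeq2 called 11 in T-HESC. In T-HESC the edgeR count was 10 when AG-205 replicate 1 was left out, where 0.49% of all tested genes were called higher. The count was 1 when replicate 3 was left out (0.0354% of all tested genes). It was 0 when replicate 2 or any single DMSO library was (0% of all tested genes). Each time 11 had an unadjusted p under 0.05 in edgeR. The 5 with the smallest p in HEC-1A included TM7SF2 (log2 fold change 3.48), MSMO1 (2.63), DHCR7 (2.14) and SQLE (1.67). Of 16 genes of other isoprenoid branches, edgeR called 0 in either line. They make geranylgeranyl diphosphate, dolichol, ubiquinone and menaquinone, prenylate proteins and tRNA, or process prenylated proteins. In edgeR, 2 (HEC-1A) and 0 (T-HESC) of them were at an unadjusted p under 0.05, where 26.2% and 5.38% of all tested genes were. DESeq2 called 0 of the 16 in either line. Their median log2 fold changes were -0.06 and 0.08, respectively.

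Another list held acetyl-CoA supply, ketone body and thiolase genes with the paralogs of the enzymes, of which 10 of 12 were tested. In HEC-1A edgeR called 2 of them higher: ACSS2, which makes acetyl-CoA from acetate, by 3.77 on the log2 scale (SE 0.126, adjusted p = 3.24e-09 by edgeR), and SLC25A1, the mitochondrial citrate carrier, by 1.06 (SE 0.0988, adjusted p = 2.17e-05 by edgeR). Leaving out HEC-1A libraries gave 1 to 3 calls, where 1.98% to 3.75% of all tested genes were called higher. In T-HESC edgeR and DESeq2 called 0 of the 10, with 3 and 4 at an unadjusted p under 0.05, where 5.38% and 5.96% of all tested genes were. There 2 of the 10 were called with library quality weights, 1 of 11 without the filter on low counts and 1 of the 10 without AG-205 replicate 1. Of all tested genes, 1.67%, 0.495% and 0.49% were called higher under these settings. The log2 fold change of ACSS2 there was 1.30 (SE 0.378, adjusted p = 0.522 by edgeR), which was 1.65 without AG-205 replicate 1 (adjusted p = 0.00907 by edgeR). Its difference between the lines was -2.45 (SE 0.435, adjusted p = 0.0543 by edgeR). For that difference edgeR called 0 of the list, where 0.174% of all tested genes were called. With DESeq2, without the filter, with quality weights, or without AG-205 replicate 1 or 3 of T-HESC, 1 gene of the list was called lower. This count was not set beside the shares of all genes under those settings. ACLY, the cytosolic source of acetyl-CoA from citrate, was named after its values were seen. Its log2 fold change in HEC-1A was 0.98 (adjusted p = 0.000424 by edgeR), below the fold limit.

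In T-HESC, AG-205 replicate 1 had AACS below its DMSO range although IDI1, MVD and HMGCS1 were raised in the same library. For comparison, and picked after their values were seen, ACLY had log2 differences from the DMSO mean of -0.28, 1.35 and 1.34 in AG-205 replicates 1, 2 and 3, CYP51A1, the lanosterol demethylase, had -0.09, 2.83 and 2.95, and ACSS2 had 0.19, 1.79 and 1.54. MSMO1, a C4-demethylating oxidase, instead had 3.59, 3.55 and 2.57. In AG-205 replicate 1, ACLY (247 CPM) and CYP51A1 (6.57 CPM) were within their DMSO ranges of 237 to 406 and 4.51 to 11.4 CPM. AACS, by contrast, was below its own. This library was the lowest of the AG-205 libraries for 7 of the 11 sterol enzymes, 5 of the 10 tested genes of the acetyl-CoA list and 4 of the 16 genes of the other branches, where it was the lowest for 42.3% of all tested genes. Among the 8 enzymes it was the lowest for AACS, HMGCS1, MVK and MVD.

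**Figure D5:**
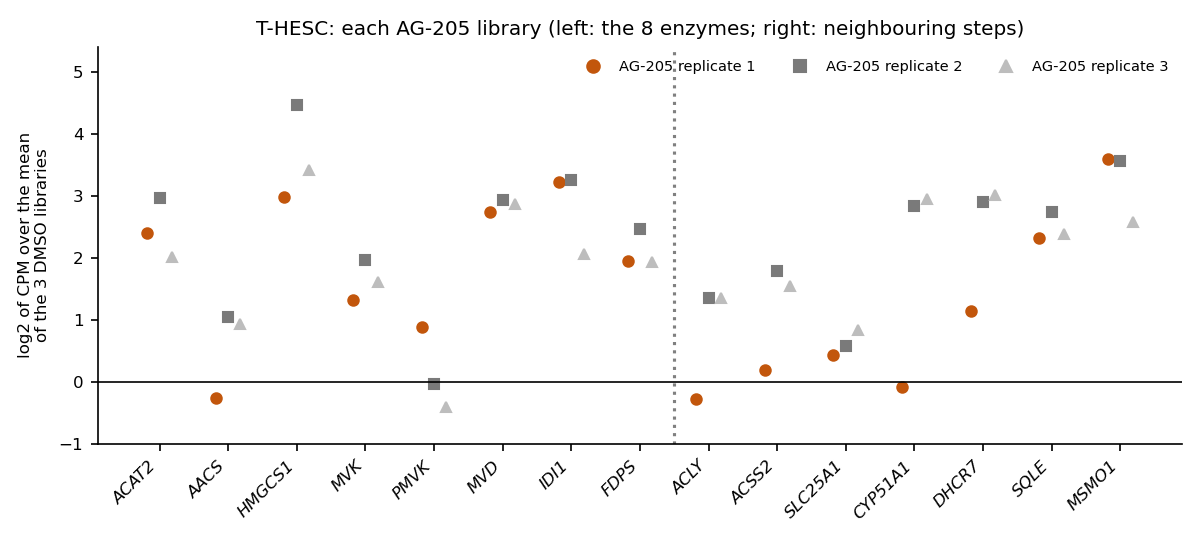
Log2 of the CPM of each AG-205 library of T-HESC over the mean of its 3 DMSO libraries, for the 8 enzymes (left of the dotted line) and for neighbouring genes, of which ACLY, ACSS2 and CYP51A1 were picked for this comparison after their values were seen (right). Replicate 1 (orange) lies below 0 for AACS, ACLY and CYP51A1, where the other replicates lie at 0.93 or above. For ACLY and CYP51A1 it is still within the range of the DMSO libraries, and for AACS below it. Replicate 1 lies above 2 for ACAT2, HMGCS1, MVD, IDI1, SQLE and MSMO1.

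Among the paralogs and pseudogenes of the enzymes, ACAT1, the mitochondrial thiolase, had 26.6 to 74.9 CPM and log2 fold changes of -0.10 (adjusted p = 0.718 by edgeR) in HEC-1A and 0.26 (adjusted p = 0.993 by edgeR) in T-HESC. IDI2 had 0 to 3 counts per library. The pseudogene AACSP1 had 53 to 127 counts per library in HEC-1A, where its log2 fold change was -0.11 (adjusted p = 0.708 by edgeR), and 0 to 2 counts in T-HESC. The 3 named pseudogenes of IDI1 had 0 counts and the 8 of FDPS had 0 to 5.

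Whether the counting used strand is not given in the sources used here, so reads of genes that overlap on opposite strands could not be told apart. ACAT2 shares 17.2% of its exon length with TCP1 on the opposite strand, whose log2 fold changes were -0.37 in HEC-1A (adjusted p = 0.0441 by edgeR) and -0.04 in T-HESC (adjusted p = 0.993 by edgeR). FDPS shares 18.6% with RUSC1-AS1, which had a log2 fold change of 2.04 in the epithelial line (adjusted p = 1.15e-06 by edgeR, 47 to 291 counts per library) and a 4.29-fold level in the stromal one (adjusted p = 0.157 by edgeR). MVK shares 2.50% with MMAB, an enzyme of cobalamin metabolism, which had log2 fold changes of 1.36 (adjusted p = 4.55e-06 by edgeR) and 1.73 (adjusted p = 0.115 by edgeR). The antisense genes that cover 37.7% of HMGCS1 (ENSG00000261604) and 15.0% of IDI1 (IDI2-AS1) had at most 15 and 8 counts per library. MVD and PMVK overlap no other gene, and AACS shares no exon base with the gene inside it.

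Divided by the joined length of all annotated exons of a gene, PMVK had the highest level of the 8 with DMSO in both lines, 62.4 ± 6.20 CPM per kb in HEC-1A and 26.9 ± 2.57 in T-HESC (SD, n = 3), and MVK the lowest. With AG-205 the highest was MVD, at 102 ± 7.51 CPM per kb (HEC-1A) and 90.6 ± 6.17 (T-HESC), and AACS the lowest, at 2.96 ± 0.26 and 4.72 ± 1.99. With AG-205 in HEC-1A the ranges of PMVK, FDPS and IDI1 overlapped (64.4, 63.5 and 62.9 CPM per kb), and HMGCS1 and ACAT2 followed with overlapping ranges. In T-HESC with AG-205 the ranges of neighbours overlapped from MVD down to FDPS, and so did those of MVK (5.97 to 9.30 CPM per kb) and AACS (2.44 to 6.10). Without AG-205 replicate 1 AACS was still the lowest, at 5.86 against 8.30 CPM per kb for MVK. The order depends on the length used. With the length of the canonical transcript, an alternative added after the data were seen, MVD was again the highest with AG-205 in both lines and AACS the lowest in HEC-1A, whereas FDPS (36.2 ± 1.00 CPM per kb) was above MVD and PMVK (26.9 ± 2.57) in T-HESC with DMSO. In T-HESC with AG-205 the ranges of AACS and MVK overlapped on this length. AACS was lowest there only through AG-205 replicate 1, and without it AACS was at 28.9, MVK at 26.4 and PMVK at 23.3 CPM per kb.

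Likeness was measured as the root mean square difference between a gene's log2 CPM, centred on the DMSO mean of its line, and the median of the 8 enzymes in each of the 12 libraries. It is a description with no test, and the enzymes themselves enter that median. FDPS was at 0.179 (rank 2 of 16132 genes), ACAT2 at rank 8, IDI1 at 11, MVK at 14, MVD at 17 and HMGCS1 at 50. Among genes outside the 8, HSD17B7 (0.152), a sterol reductase of the later pathway, and STARD4 (0.244), a cytosolic sterol carrier, were among the 5 nearest. AACS was at 1.46 (rank 2549) and PMVK at 1.57 (rank 5338).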

How the data were processed

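RNA of 12 cell cultures was sequenced after polyA selection, and per the labels and the paper each group came from 3 independent cell culture experiments, without saying which AG-205 and DMSO cultures share one. The authors trimmed read pairs (Trimmomatic 0.38), used HISAT2 2.1.0 for alignment to GRCh38 and counted them with featureCounts of Subread 2.0.0 on Ensembl 94. They deposited whole-number counts per gene, without normalization. How the counting treated strand and multi-mapping reads is not given in the sources used here.

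Each line was tested with edgeR 4.0.16 in R 4.3.3 (TMM, filterByExpr, quasi-likelihood test, Benjamini-Hochberg adjustment over all genes tested), and the difference between the lines and between the DMSO cultures over all 12 libraries. A call needed an adjusted p under 0.05 and a log2 value beyond 1. SE values come from the quasi-likelihood F value. An exact permutation test of 1 gene cannot go below 0.1 for groups of 3, so models across genes were used. The 7 alternatives tried were DESeq2 1.42.0, RLE size factors, no filter, quality weights (limma 3.58.1), the replicate block, 1 fit of all 12 libraries and leaving out each library. The procedure was tested on simulated counts. Positions and overlaps came from GENCODE 44, promoters from RefSeq, and plots from matplotlib 3.10.9.

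The enzymes, lists and motifs were chosen with earlier results of these data known. All 8 enzymes were named, at most 5 called genes of each other list by smallest p, genes that overlap an enzyme, and the 5 genes nearest in profile. Some genes that this rule would name are not reported here.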

Additional observations from a re-analysis of the deposited data

How the results depend on the processing

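In HEC-1A, 6 enzymes were called under each of the 12 alternatives. In T-HESC the count of 4 became 6 with DESeq2, without the filter, with quality weights and with all 12 libraries in 1 fit, 4 with RLE size factors, and 0 to 6 when single libraries were left out, that is 0 if AG-205 replicate 2 or any single DMSO library was missing and 2 if AG-205 replicate 3 was. The counts over all genes moved too, from 11 higher in T-HESC to 107 with DESeq2, 145 without the filter and 230 with quality weights. They were 133 (0.824%) in T-HESC with all 12 libraries in 1 fit and 0 to 69 when single libraries were left out. In HEC-1A, 364 higher became 135 with all 12 libraries in 1 fit. The direction of each of the 6 enzymes in each line was the same in all 12 alternatives, and the cause of the lost and gained calls was not tested.

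The count of enzymes whose effect differed between the lines was 0, where 0.174% of all tested genes were called. It became 1 with quality weights, and was 0 to 1 when libraries were left out. The count for the DMSO cultures was 2, where 44.3% of all tested genes were called. It became 1 with quality weights, and was 1 to 2 when libraries were left out. Shares of all genes under these alternatives are not given here, so the changes in these 2 counts were not set beside them. Effects near 0 changed sign. With quality weights AACS in HEC-1A was 0.0409, PMVK in T-HESC -0.14, and the differences between the lines 0.0805 for ACAT2 and -0.15 for PMVK. When libraries were left out, AACS ranged from -0.059 to 0.0415 and PMVK from -0.0202 to 0.11 in HEC-1A, PMVK from -0.24 to 0.48 in T-HESC, the differences between the lines from -0.25 to 0.45 for PMVK and from -0.0613 to 0.25 for FDPS, and AACS between the DMSO cultures from -0.0747 to 0.00899.

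It was not settled whether replicate numbers pair the libraries. Deviations of same-numbered libraries from their group means correlated at -0.06, 0.18 and -0.00 in HEC-1A and 0.21, -0.43 and -0.03 in T-HESC. With means of 3 libraries, some of which stood apart, these values cannot show that a pairing is absent. With the replicate block, the counts were 6 (HEC-1A) and 3 (T-HESC, with FDPS lost at an adjusted p of 0.0614 in edgeR), and 0 enzymes differed between the lines. The lowest count of an enzyme in a library was 172. The median SE over genes was 0.33 in T-HESC and 0.13 in HEC-1A, and its part in the T-HESC counts was not tested.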
